A study of Mus musculus with 8 samples.

Results

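The annexins are the genes whose symbols begin with Anxa, and 10 of them were followed here across all groups of the experiment: Anxa1, Anxa2, Anxa3, Anxa4, Anxa5, Anxa6, Anxa7, Anxa8, Anxa11 and Anxa13. They were taken from the gene count table by their symbols, 10 of 55304 rows. All 10 passed the filter on low counts that left 17440 genes for testing. RNA was sequenced from mouse kidney cells selected with the Dolichos biflorus lectin (DBA), which labels collecting duct epithelium.

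Annexins are cytosolic proteins that bind negatively charged phospholipids of membranes when calcium rises. Their conserved core carries the calcium and membrane binding sites, while the variable N-terminal tail binds partners such as S100 proteins and sets what each member does. In epithelia they are known for membrane repair, vesicle traffic, the control of plasmin formation at the cell surface and, for Anxa1, signalling through formyl peptide receptors.

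The mice modelled polycystic kidney disease of the autosomal dominant kind (ADPKD) or were wild type (WT). Inhibitor-treated ADPKD mice received 666-15, a small-molecule inhibitor of the transcription factor CREB, and vehicle-treated ADPKD mice received DMSO; inhibitor-treated WT mice likewise received 666-15 and vehicle-treated WT mice DMSO. The inhibitor was dosed at 5 mg/kg daily in cycles of 5 dosing days and 2 days off, starting at postnatal day 11 and continuing for 3 weeks. Each of the 4 groups has 2 libraries, 8 in all. The labels name neither the altered gene of the ADPKD mice nor a promoter or Cre line, and the extraction notes mention whole kidney beside the isolated cells. They leave unsaid whether both libraries of a group derive from different animals. Sex-linked genes, given below, tell the animals apart only in inhibitor-treated WT. The p-values measure the spread between these libraries, which may be technical in the other groups.

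Total counts per library were between 15108793 and 19702638. The summed counts of 13 principal cell markers held 0.954% to 1.04% of all counts in inhibitor-treated ADPKD cells, 0.99% to 1.04% in vehicle-treated ADPKD cells, 1.04% to 1.07% in inhibitor-treated WT cells and 0.352% to 0.387% in vehicle-treated WT cells. Single markers differed from the sum. Of 12 tested, 8 were called higher and 2 lower in ADPKD with vehicle, by the test given below (median log2 fold change 0.68). With inhibitor 2 were higher and 7 lower in ADPKD (median -0.86). Of all genes tested, 28.8% were higher and 27.6% lower with vehicle, and 21.8% and 24.5% with inhibitor. Aqp2, the vasopressin-regulated water channel that defines principal cells, was present in all 8 libraries, with 372 and 565 CPM (counts scaled to library size) in inhibitor-treated ADPKD cells and 613 and 489 CPM in vehicle-treated ADPKD cells. It had 1543 and 2078 CPM in inhibitor-treated WT cells, against 276 and 412 CPM in vehicle-treated WT cells. The keratin Krt8, another of these markers, weighs heavily in the sum. It averaged 4844 CPM in inhibitor-treated ADPKD, 5270 in vehicle-treated ADPKD, 2741 in inhibitor-treated WT and 1667 in vehicle-treated WT cells. Markers of the proximal tubule held 0.0408% to 0.0434% in inhibitor-treated ADPKD cells, 0.0228% to 0.0254% in vehicle-treated ADPKD cells, 0.614% to 0.621% in inhibitor-treated WT cells and 1.52% to 1.74% in vehicle-treated WT cells. None of these markers was at 0 in both libraries of a group, and the vehicle-treated WT libraries carried more signal of proximal tubule markers than of principal cell markers. Markers of the thick ascending limb held 0.0337% to 0.0422% in all ADPKD libraries, 0.304% to 0.401% in inhibitor-treated WT cells and 0.681% to 0.69% in vehicle-treated WT cells. Endothelial markers held 0.0295% to 0.038% in inhibitor-treated ADPKD cells, 0.108% to 0.134% in vehicle-treated ADPKD cells, 0.0763% to 0.127% in inhibitor-treated WT cells and 0.137% to 0.159% in vehicle-treated WT cells. Markers of stromal fibroblasts and pericytes held 0.0342% to 0.0362% in inhibitor-treated ADPKD cells, 0.0405% to 0.068% in vehicle-treated ADPKD cells, 0.0171% to 0.028% in inhibitor-treated WT cells and 0.027% to 0.033% in vehicle-treated WT cells. Of these 10 markers, 7 were higher and 1 lower in ADPKD with vehicle (median log2 fold change 1.77), against 28.8% and 27.6% of all genes. With inhibitor 6 were higher and 2 lower (median 1.72), against 21.8% and 24.5% of all genes. In such bulk libraries fewer cells of a type and less RNA per cell cannot be told apart, and the part of cell composition in the genotype and inhibitor results was not tested. Sex-linked genes set 1 library apart: the second inhibitor-treated WT library had 1119 CPM of Xist and no Ddx3y count, while the other 7 libraries had at most 0.530 CPM of Xist and between 117.7 and 185.4 CPM of Ddx3y. The sexes of the inhibitor-treated WT libraries thus differed, so those libraries derive from different animals. Leaving that library out ended none of the 6 annexin calls for inhibitor against vehicle in WT cells.

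The 4 promoter windows below belong to genes on which the results turn: Anxa8, with a genotype difference of 6.91 on the log2 scale, Anxa1 and Anxa2, the most abundant members, and Anxa4, in 1 of whose windows stood the CREB core motif. Each shows 250 bases before a RefSeq transcript start (build GRCm38.p6), read 5′ to 3′ on the gene's strand, with matched motifs in capitals.
Anxa8, chr14:34085729-34085978, plus strand: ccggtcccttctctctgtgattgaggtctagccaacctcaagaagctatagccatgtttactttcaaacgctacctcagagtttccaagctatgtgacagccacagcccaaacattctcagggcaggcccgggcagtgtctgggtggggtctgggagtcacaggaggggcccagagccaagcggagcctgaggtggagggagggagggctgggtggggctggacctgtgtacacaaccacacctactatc
Anxa1, chr19:20390672-20390921, minus strand: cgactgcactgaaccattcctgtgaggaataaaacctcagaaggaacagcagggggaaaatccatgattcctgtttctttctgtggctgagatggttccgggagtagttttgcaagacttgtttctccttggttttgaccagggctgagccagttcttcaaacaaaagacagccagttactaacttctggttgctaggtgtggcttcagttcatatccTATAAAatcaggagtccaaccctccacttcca
Anxa2, chr9:69453433-69453682, plus strand: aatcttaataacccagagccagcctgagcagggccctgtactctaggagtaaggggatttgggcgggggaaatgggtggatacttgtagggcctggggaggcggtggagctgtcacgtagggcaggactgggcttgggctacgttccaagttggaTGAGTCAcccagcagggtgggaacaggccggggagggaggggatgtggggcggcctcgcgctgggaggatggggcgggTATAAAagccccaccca
Anxa4, chr6:86775115-86775364, minus strand: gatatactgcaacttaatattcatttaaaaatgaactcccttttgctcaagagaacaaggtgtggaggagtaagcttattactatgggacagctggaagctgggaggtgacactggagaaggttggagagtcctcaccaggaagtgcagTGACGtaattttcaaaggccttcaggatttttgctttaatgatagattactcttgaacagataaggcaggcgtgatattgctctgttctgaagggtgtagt
Motifs were searched by their letters on both strands: TGACGTCA, the full cyclic AMP response element bound by CREB; TGACG, its core, which lies inside it; TGANTCA, the AP-1 element; and TATAAA, the TATA box. RefSeq windows were at hand for 7 members, 9 windows in all, since Anxa4 and Anxa7 have more than 1 start. Anxa3, Anxa6 and Anxa13 had no window and were not searched. None of these 9 windows held TGACGTCA, against 1.55% of all 32851 windows. At so low a share its absence from 9 windows says little. TGACG was found in 1 of 9, the Anxa4 window shown, at bases 101 to 97 before the start, against 17.8% of all windows. That window lies before a start inside the gene. The other Anxa4 window (chr6:86793585-86793834), directly before the 5′ end of the gene, held none of the motifs searched. TGANTCA was found in 1 of 9, as TGAGTCA at bases 95 to 89 before the Anxa2 start, against 6.75%. TATAAA was found in 2 of 9, at bases 32 to 27 before the Anxa1 start and 17 to 12 before the Anxa2 start, against 12.4%. The Anxa8 window held none of the motifs searched.

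Taken per kilobase of each gene's longest transcript, so that genes of different length can be compared, the 10 annexins summed to 2542 ± 137 CPM per kilobase in inhibitor-treated ADPKD cells, 2058 ± 64.1 in vehicle-treated ADPKD cells, 1113 ± 122 in inhibitor-treated WT cells and 638.8 ± 0.133 in vehicle-treated WT cells (SD, n = 2 each). The annexin pool was therefore 3.22-fold larger in ADPKD than in WT cells with vehicle and 2.28-fold larger with inhibitor. Inhibitor-treated cells had a pool 1.24-fold that of vehicle-treated cells in ADPKD and 1.74-fold in WT. In ADPKD most of that difference lay in Anxa1, at 1172 CPM per kilobase with inhibitor and 754.9 with vehicle. That Anxa1 response was not called under every alternative, as given below. The pool ratios were not tested. As a share of all counts, the 10 genes took 0.464% and 0.487% in inhibitor-treated ADPKD libraries, 0.390% and 0.399% in vehicle-treated ADPKD libraries, 0.256% and 0.221% in inhibitor-treated WT libraries and 0.15% in both vehicle-treated WT libraries.

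The make-up of the pool also differed between groups, most of all in the part of Anxa1. It supplied 46.1% of the length-corrected pool in inhibitor-treated ADPKD cells, 36.6% in vehicle-treated ADPKD cells, 27.8% in inhibitor-treated WT cells and 16.1% in vehicle-treated WT cells. In the 2 ADPKD groups and in inhibitor-treated WT cells Anxa1 stood first in the order of length-corrected levels and Anxa2 second. In inhibitor-treated WT cells this pair was at 310.9 ± 60.0 and 254.7 ± 43.3 CPM per kilobase (SD, n = 2). There the ranges of both genes overlapped, but Anxa1 was above Anxa2 within each library (353.2 against 285.4, and 268.5 against 224.1). In vehicle-treated WT cells the order was Anxa2 at 166.6 CPM per kilobase, then Anxa1 at 103.0, Anxa7 at 101.1 and Anxa5 at 100.6, and those 3 neighbours do not differ beyond their spread. Anxa3 had rank 4 in both ADPKD groups, at 161.8 CPM per kilobase with inhibitor and 199.5 with vehicle. In WT cells it had rank 8 with inhibitor, at 29.9 CPM per kilobase, and rank 7 with vehicle, at 35.9. Anxa7 stayed within 89.7 to 107.4 CPM per kilobase as a group mean, while its share of the pool varied. It supplied 4.23%, 4.36%, 9.09% and 15.8% of the pool in inhibitor-treated ADPKD, vehicle-treated ADPKD, inhibitor-treated WT and vehicle-treated WT cells. Anxa8 and Anxa13 were the last 2 in both WT groups.

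**Figure D1:**
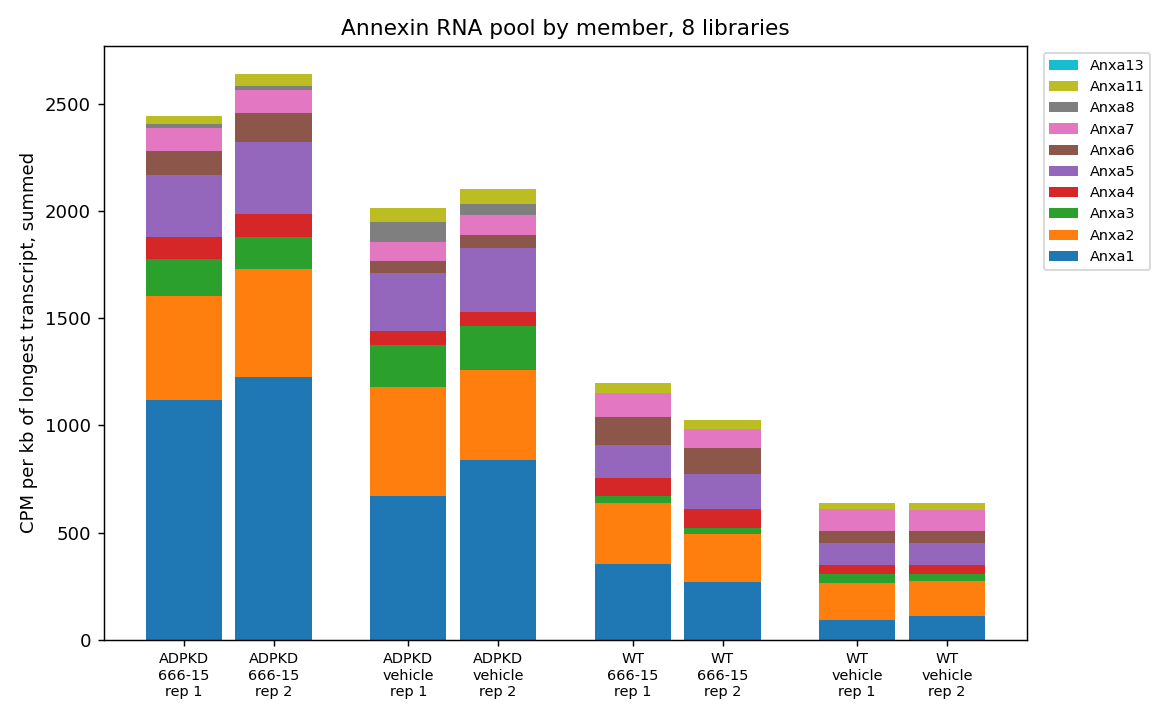
Annexin RNA pool in each of the 8 libraries, as CPM per kilobase of longest transcript (vertical axis) summed over the 10 genes, each bar being 1 library stacked by gene, with the groups along the horizontal axis. All 4 ADPKD bars stand above all 4 WT bars, and the Anxa1 layer at the foot is tallest in the inhibitor-treated ADPKD libraries.

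The groups were compared with edgeR's quasi-likelihood test, and a gene was called at an adjusted p below 0.05 after Benjamini-Hochberg adjustment over all 17440 genes. Between genotypes with vehicle, 8 of 10 annexins were called, 7 higher and 1 lower in ADPKD, where 56.4% of all genes tested were called, 28.8% higher and 27.6% lower. With inhibitor, 6 were called between genotypes, all higher in ADPKD, against 46.3% of all genes called and 21.8% called higher. The inhibitor changed 6 annexins in ADPKD cells, 4 higher and 2 lower, against 41.4% of all genes, 22.3% higher and 19.1% lower. In WT cells it also changed 6, all higher, against 25.5% of all genes and 13.9% called higher. Set against vehicle-treated WT cells, inhibitor-treated ADPKD cells had 8 annexins called, all higher, against 55.3% of all genes and 28.6% called higher.

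The median log2 fold change of the 10 annexins was 1.36 for ADPKD over WT with vehicle and 0.63 with inhibitor, against 0.05 and -0.03 over all genes tested. For inhibitor over vehicle it was 0.20 in ADPKD cells and 0.64 in WT cells, against 0.02 and -0.01 over all genes. Inhibitor-treated ADPKD over vehicle-treated WT cells gave 1.41, against 0.04. The libraries of the compared groups did not overlap in CPM for 9 of 10 annexins between genotypes with vehicle, where the same held for 80.0% of all genes. The corresponding counts were 8 of 10 against 71.6% of all genes for the inhibitor in ADPKD cells, 6 of 10 against 64.1% for the inhibitor in WT cells, and 7 of 10 against 73.8% between genotypes with inhibitor. Inhibitor-treated ADPKD and vehicle-treated WT libraries did not overlap for 10 of 10, against 81.0%. These separation counts lie near the share of all genes and say little of the annexins. The comparisons share libraries, so the counts above are not independent of each other.

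**Figure D2:**
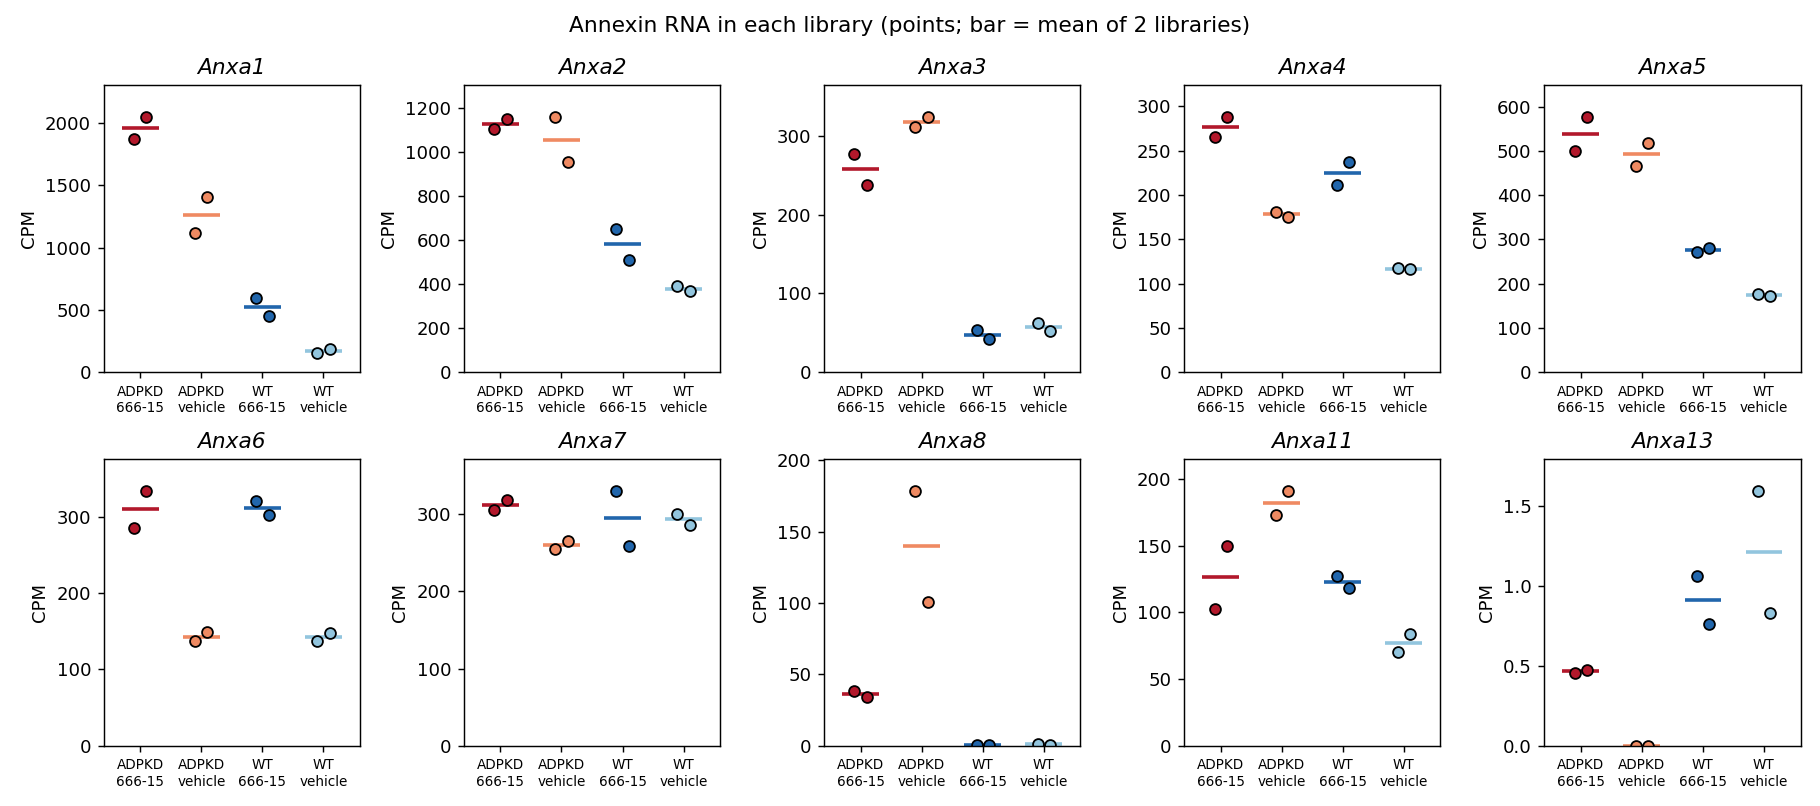
CPM of each annexin (vertical axes, linear from 0, one panel a gene) in the 2 libraries of each group, with points for libraries and a line at their mean. Anxa1, Anxa2, Anxa3, Anxa5 and Anxa8 lie higher in all ADPKD libraries than in all WT libraries, whereas Anxa6 lies higher in all inhibitor-treated libraries than in all vehicle-treated ones.

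**Figure D3:**
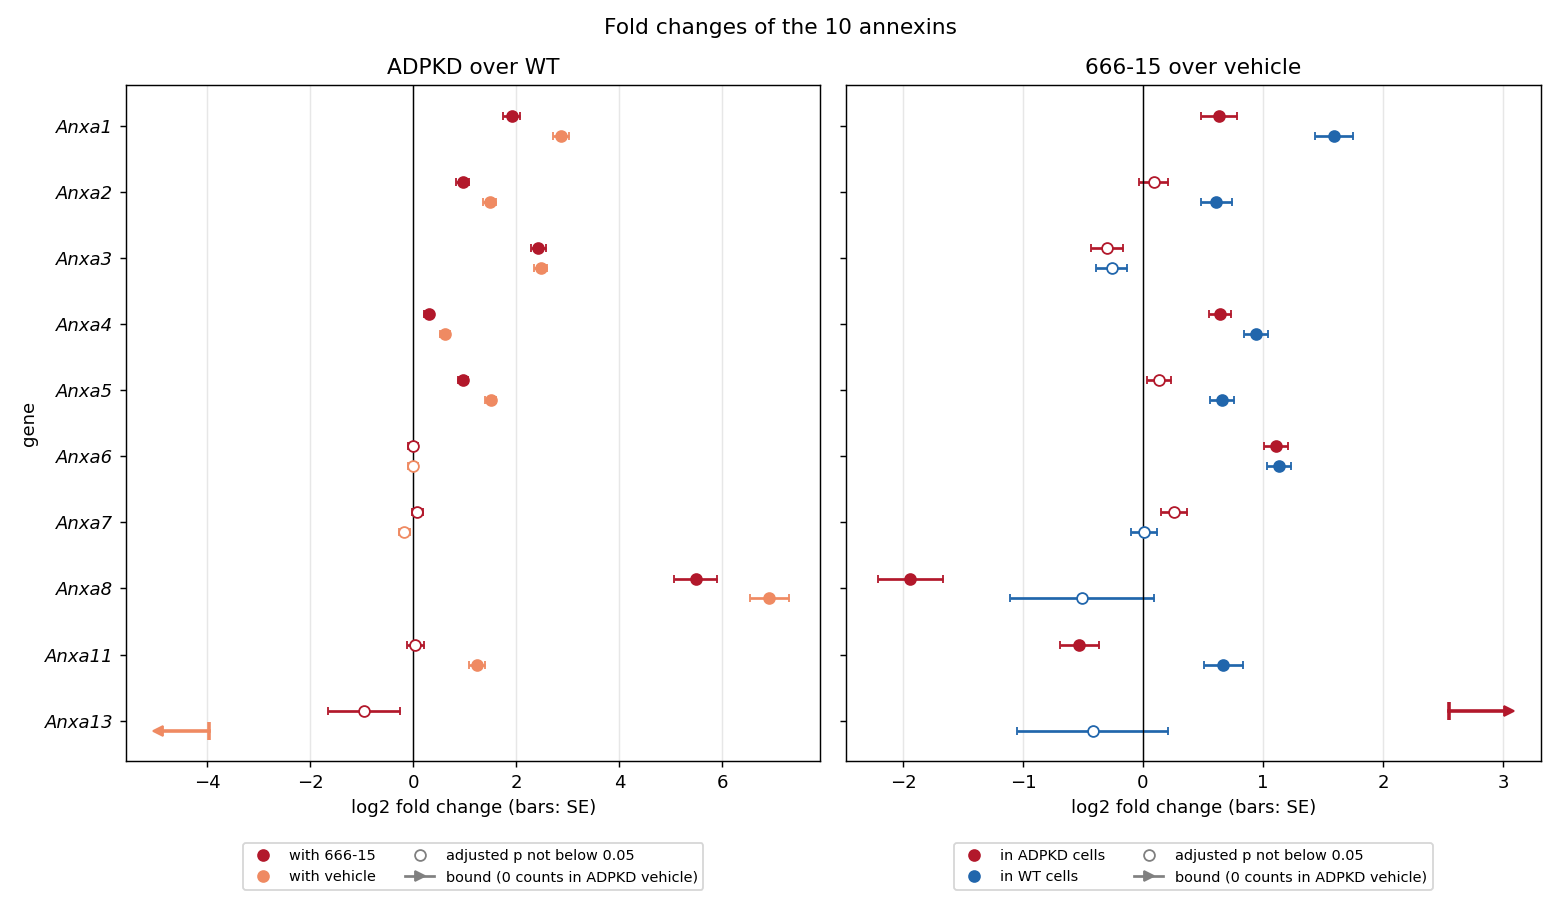
Log2 fold changes of ADPKD over WT (left) and 666-15 over vehicle (right) for each annexin, with bars for the SE of the fit; filled points passed the test, open points did not, and arrows mark bounds for Anxa13, which had 0 counts in vehicle-treated ADPKD cells. Genotype differences reach 6.91 for Anxa8, and those of Anxa6 and Anxa7 lie near 0.

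Anxa1 (chr19:20373428-20390944, minus strand, GRCm38), a glucocorticoid-induced protein that is released from cells and acts on formyl peptide receptors to dampen inflammation, had the highest length-corrected level of the annexins in every group except vehicle-treated WT cells. It stood at 1872 and 2050 CPM in inhibitor-treated ADPKD cells and at 1121 and 1407 CPM in vehicle-treated ADPKD cells. In WT cells it stood at 591 and 449 CPM with inhibitor, against 157 and 188 CPM with vehicle. The 4 groups did not overlap, and their order was inhibitor-treated ADPKD, vehicle-treated ADPKD, inhibitor-treated WT and vehicle-treated WT. ADPKD cells exceeded WT cells by 2.87 ± 0.16 on the log2 scale with vehicle (7.33-fold, adjusted p = 7.12e-08) and by 1.91 ± 0.16 with inhibitor (adjusted p = 3.28e-06). The inhibitor raised Anxa1 by 1.59 ± 0.16 in WT cells (3.02-fold, adjusted p = 3.21e-05) and by 0.63 ± 0.15 in ADPKD cells (1.55-fold, adjusted p = 0.00645). These 2 responses differed, with an interaction of -0.96 ± 0.21 (adjusted p = 0.0076). The response in ADPKD cells was 0.35 and not called (adjusted p = 0.136) once a trend of counts with GC content was removed, and 0.58 (adjusted p = 0.0573) without the second inhibitor-treated ADPKD library. Across 17252 genes, the inhibitor's log2 fold change in ADPKD cells had a Spearman correlation with transcript GC content of -0.354, against 0.0155 in WT cells; genes are not independent replicates. The lincRNA 1500015L24Rik overlaps Anxa1 on the other strand and had at most 0.814 CPM.

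The receptors of Anxa1 were close to the detection limit. Fpr1, a formyl peptide receptor of myeloid cells, had 15 and 11 counts in inhibitor-treated ADPKD libraries and 72 and 55 in vehicle-treated ADPKD libraries, and 8 and 8 in inhibitor-treated WT libraries against 5 and 3 in vehicle-treated WT libraries. With vehicle it rose by 3.92 ± 0.54 in ADPKD over WT cells (adjusted p = 4.39e-05), and with the inhibitor it fell by 1.95 ± 0.46 in ADPKD cells (adjusted p = 0.00483). Fpr2, through which Anxa1 signals in mice and which has close paralogs, had 12 and 6 counts in inhibitor-treated ADPKD libraries and 70 and 25 in vehicle-treated ADPKD libraries, and 16 and 9 in inhibitor-treated WT libraries against 2 and 6 in vehicle-treated WT libraries. It rose by 3.46 ± 0.76 (adjusted p = 0.00173) and fell by 2.05 ± 0.68 (adjusted p = 0.0287) in the same comparisons. The receptors thus moved opposite to Anxa1 with the inhibitor in ADPKD cells. Macrophage markers, whose cells express these receptors, held 0.0252% to 0.0322% of counts in inhibitor-treated ADPKD cells, 0.0344% to 0.0403% in vehicle-treated ADPKD cells, 0.0167% to 0.0171% in inhibitor-treated WT cells and 0.0122% to 0.0149% in vehicle-treated WT cells, with none of the 12 markers at 0 in both libraries of a group. Single markers differed more than the sum. With vehicle 10 of 12 were higher and 1 lower in ADPKD (median log2 fold change 2.81), against 28.8% and 27.6% of all genes. With the inhibitor 1 rose and 2 fell in ADPKD cells (median -0.45), against 22.3% and 19.1% of all genes. C1qa averaged 13.3 CPM in inhibitor-treated ADPKD cells, 23.0 in vehicle-treated ADPKD cells, 3.30 in inhibitor-treated WT cells and 0.574 in vehicle-treated WT cells, whereas Csf1r averaged 36.7, 28.9, 57.5 and 64.1 CPM in those groups. Their part in the receptor counts was not tested. Of the 8 tested genes of formyl peptide receptors and phospholipase A2, which annexins inhibit in vitro, 2 were higher and 2 lower in ADPKD with vehicle, where 28.8% of all genes were higher and 27.6% lower. With inhibitor in ADPKD cells 1 rose and 4 fell, where 22.3% of all genes rose and 19.1% fell. The cytosolic phospholipase Pla2g4a rose with the inhibitor by 1.28 ± 0.17 in ADPKD cells (adjusted p = 0.000106) and by 0.77 ± 0.18 in WT cells (adjusted p = 0.00627), and secreted Pla2g5 fell by 3.49 ± 0.58 in ADPKD cells (adjusted p = 0.000459) and fell by 1.89 ± 0.28 in WT cells (adjusted p = 0.000326).

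Anxa2 (chr9:69453620-69491795, plus strand), which pairs with S100a10 at the plasma membrane and binds plasminogen and its activator, had 1103 and 1150 CPM in inhibitor-treated ADPKD cells and 1161 and 953 CPM in vehicle-treated ADPKD cells. It had 651 and 511 CPM in inhibitor-treated WT cells, against 393 and 366 CPM in vehicle-treated WT cells. The ADPKD libraries were all above the WT libraries, and the 2 ADPKD groups overlapped. ADPKD over WT was 1.48 ± 0.13 with vehicle (adjusted p = 7.44e-07) and 0.96 ± 0.13 with inhibitor (adjusted p = 5.75e-05). The inhibitor raised Anxa2 by 0.61 ± 0.13 in WT cells (adjusted p = 0.00322), whereas the value in ADPKD cells was 0.09 ± 0.12 (adjusted p = 0.587).

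Anxa5 (chr3:36448923-36475894, minus strand), which binds exposed phosphatidylserine and is used to stain dying cells, followed the same order. It had 500.9 and 577.0 CPM in inhibitor-treated ADPKD cells and 465.5 and 518.9 CPM in vehicle-treated ADPKD cells, with 270.5 and 280.4 CPM in inhibitor-treated WT cells against 176.5 and 171.6 CPM in vehicle-treated WT cells. All 4 ADPKD libraries lay above the WT ones, and the 2 ADPKD groups overlapped. ADPKD over WT was 1.50 ± 0.10 with vehicle (adjusted p = 6.29e-08) and 0.97 ± 0.10 with inhibitor (adjusted p = 7.09e-06). In WT cells the inhibitor raised it by 0.66 ± 0.10 (adjusted p = 0.000354), whereas the value in ADPKD cells was 0.13 ± 0.10 (adjusted p = 0.315), which passed once a length trend was taken out (0.27, adjusted p = 0.0389). The profiles of Anxa2 and Anxa5, each centred on its own mean, were the most alike of all annexin pairs, with a root mean square difference of 0.156 on the log2 scale over 8 libraries.

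The smaller response in ADPKD cells, measured by the interaction, was -0.52 ± 0.18 for Anxa2 (adjusted p = 0.0467) and -0.53 ± 0.14 for Anxa5 (adjusted p = 0.0148). Neither was firm. Anxa2 passed no longer with RLE scaling (-0.47, adjusted p = 0.0695), with DESeq2 (-0.47, adjusted p = 0.0567), with a 5 CPM filter (-0.50, adjusted p = 0.0518), without the robust option (-0.52, adjusted p = 0.0561), with the GC trend removed (-0.35, adjusted p = 0.149) or the length trend removed (-0.36, adjusted p = 0.139), and without any 1 of 6 of the 8 libraries. Its smallest value, -0.32 (adjusted p = 0.165), came without the first inhibitor-treated WT library. Anxa5 was lost with the length trend removed (-0.35, adjusted p = 0.0764) and without either vehicle-treated WT library (-0.53, adjusted p = 0.056, and -0.49, adjusted p = 0.0747), the second vehicle-treated ADPKD library (-0.43, adjusted p = 0.0687) or the first inhibitor-treated ADPKD library (-0.41, adjusted p = 0.0968).

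Among S100 partners of annexins, 4 of 6 genes in the table were tested; with vehicle 3 were higher and 1 lower in ADPKD than in WT cells, where 56.4% of all genes were called and 28.8% called higher. S100a11, the Anxa1 partner, had 733 and 935 CPM in inhibitor-treated ADPKD cells and 589 and 580 CPM in vehicle-treated ADPKD cells, with 540 and 509 CPM in inhibitor-treated WT cells against 235 and 259 CPM in vehicle-treated WT cells. It was higher in ADPKD by 1.24 ± 0.12 with vehicle (adjusted p = 1.19e-06), rose with the inhibitor by 0.51 ± 0.11 in ADPKD cells (adjusted p = 0.00326) and by 1.09 ± 0.12 in WT cells (adjusted p = 2.32e-05), and these responses differed by -0.58 ± 0.16 (adjusted p = 0.0195). The Anxa2 partner S100a10 was 0.50 ± 0.13 higher in ADPKD with vehicle (adjusted p = 0.00653), which is less than the 1.48 of Anxa2 itself; the inhibitor values were -0.19 ± 0.13 in ADPKD cells and 0.23 ± 0.13 in WT cells, neither called. S100a6, which binds several annexins, was higher in ADPKD by 3.96 ± 0.28 with vehicle (adjusted p = 1.72e-05) and fell by 1.20 ± 0.25 with the inhibitor in ADPKD cells (adjusted p = 0.00788). The 6 tested genes of plasminogen activation at the cell surface were all called with vehicle, 3 higher and 3 lower in ADPKD, where 56.4% of all genes were called. The inhibitor called 3 of them in ADPKD cells and 2 in WT cells, against 41.4% and 25.5% of all genes. With vehicle, the urokinase receptor Plaur was higher in ADPKD than in WT cells by 1.94 ± 0.12 (adjusted p = 3.23e-08) and urokinase Plau by 1.11 ± 0.10 (adjusted p = 7.51e-07). In that genotype comparison enolase Eno1, whose close copy Eno1b may share its reads, was lower (-1.22 ± 0.09, adjusted p = 1.91e-07). Of 14 tested genes that expose or recognise phosphatidylserine, 5 were higher and 5 lower in ADPKD with vehicle, against 28.8% and 27.6% of all genes. Among them were the scramblase Ano6 (0.78 ± 0.09, adjusted p = 1.18e-05) and the bridging ligand Gas6 (-1.85 ± 0.11, adjusted p = 1.54e-08).

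Anxa4 and Anxa6 rose with the inhibitor in both genotypes. Anxa4 (chr6:86736840-86793584, minus strand) is an epithelial annexin that self-associates on membranes and limits the movement of lipids and proteins in them. It had 266.0 and 288.3 CPM in inhibitor-treated ADPKD cells and 180.5 and 175.6 CPM in vehicle-treated ADPKD cells, with 211.8 and 237.4 CPM in inhibitor-treated WT cells against 117.1 and 116.5 CPM in vehicle-treated WT cells. All 4 groups were separate. The inhibitor raised it by 0.64 ± 0.09 in ADPKD cells (adjusted p = 0.000204) and by 0.94 ± 0.10 in WT cells (adjusted p = 1.63e-05). The interaction was -0.30 ± 0.13 and not called (adjusted p = 0.116), but it was called with the GC trend removed (-0.40, adjusted p = 0.0314). ADPKD over WT was 0.61 ± 0.10 with vehicle (adjusted p = 0.000128) and 0.30 ± 0.09 with inhibitor (adjusted p = 0.0188). The last value was 0.22 (adjusted p = 0.105) without the first inhibitor-treated WT library and 0.24 (adjusted p = 0.152) without the second inhibitor-treated ADPKD library.

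Anxa6 (chr11:54979108-55033445, minus strand), the largest annexin, with a duplicated core and a role in cholesterol and endosome traffic, rose with the inhibitor in both genotypes and was called between genotypes in neither treatment. It had 285.4 and 334.4 CPM in inhibitor-treated ADPKD cells and 137.1 and 149.1 CPM in vehicle-treated ADPKD cells. It had 321.2 and 302.1 CPM in inhibitor-treated WT cells, against 137.8 and 147.8 CPM in vehicle-treated WT cells. All 4 inhibitor-treated Anxa6 values were above all 4 vehicle-treated values, and the genotypes overlapped within each treatment. The inhibitor raised Anxa6 by 1.11 ± 0.10 in ADPKD cells (2.17-fold, adjusted p = 7.69e-06) and by 1.13 ± 0.10 in WT cells (2.18-fold, adjusted p = 8.09e-06). The interaction was -0.01 ± 0.15 (adjusted p = 0.967), and ADPKD over WT was 0.00 ± 0.10 with vehicle (adjusted p = 0.981) and -0.01 ± 0.10 with inhibitor (adjusted p = 0.957).

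Intercalated cell markers were also higher with the inhibitor in both genotypes. Of the 10, 8 were higher and 0 lower in ADPKD cells (median log2 fold change 1.55), and 7 higher and 0 lower in WT cells (median 0.95). Of all genes, 22.3% were higher and 19.1% lower in ADPKD cells, and 13.9% and 11.6% in WT cells. Their summed share was 0.0657% to 0.0782% in inhibitor-treated ADPKD cells against 0.0242% to 0.0291% in vehicle-treated ADPKD cells, and 0.185% to 0.254% in inhibitor-treated WT cells against 0.105% to 0.109% in vehicle-treated WT cells, with no marker at 0 in both libraries of a group. Principal cell markers also rose with the inhibitor in WT cells, but only in part in ADPKD cells. Their summed share was 0.954% to 1.04% in inhibitor-treated against 0.99% to 1.04% in vehicle-treated ADPKD cells. In WT cells it was 1.04% to 1.07% with inhibitor against 0.352% to 0.387% with vehicle. Of 12 tested, 6 were higher and 1 lower in ADPKD cells (median 0.34), and 12 higher and 0 lower in WT cells (median 2.01). The part of either list in the Anxa4 and Anxa6 results was not tested.

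In the membrane repair list, to which several annexins are functionally tied, 21 genes were tested. With the inhibitor 7 rose and 3 fell in ADPKD cells, where 41.4% of all genes were called, and 12 rose and 2 fell in WT cells, where 25.5% were called. Cav1, the caveolar coat protein, rose by 1.67 ± 0.11 in ADPKD cells (adjusted p = 8.97e-07) and 1.64 ± 0.11 in WT cells (adjusted p = 9.55e-07), and Capn1, a calcium-activated protease, rose by 0.88 ± 0.12 in ADPKD cells (adjusted p = 0.000131) and 1.28 ± 0.13 in WT cells (adjusted p = 1.21e-05). Between genotypes with vehicle 13 were higher and 3 lower in ADPKD, against 28.8% and 27.6% of all genes, among them the repair scaffold Ahnak2 (5.80 ± 0.22, adjusted p = 4.01e-10), the calpain subunit Capns1 (1.50 ± 0.11, adjusted p = 1.13e-07) and the dysferlin relative Myof (1.29 ± 0.11, adjusted p = 6.12e-07).

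Anxa7 and Anxa11 carry long N-terminal tails. Anxa7 (chr14:20455260-20480133, minus strand), which promotes membrane fusion, had 305.6 and 318.4 CPM in inhibitor-treated ADPKD cells and 255.1 and 265.9 CPM in vehicle-treated ADPKD cells, and 330.6 and 258.9 CPM in inhibitor-treated WT cells against 300.5 and 286.5 CPM in vehicle-treated WT cells. No comparison called it. The values were -0.17 ± 0.11 (adjusted p = 0.21) for genotype with vehicle, 0.26 ± 0.11 (adjusted p = 0.0804) for the inhibitor in ADPKD cells and 0.01 ± 0.11 (adjusted p = 0.978) for the inhibitor in WT cells. The ADPKD value was called with no filter on low counts (0.29, adjusted p = 0.0273), with the compared groups alone (0.23, adjusted p = 0.0444) and without the first (0.27, adjusted p = 0.0152) or second (0.28, adjusted p = 0.0111) inhibitor-treated WT library. The genotype value with vehicle was called with the compared groups alone (-0.25, adjusted p = 0.0237), and the interaction, 0.25 ± 0.16 (adjusted p = 0.264), without the first inhibitor-treated WT library (0.46, adjusted p = 0.0221).

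Anxa11 (chr14:25842156-25886804, plus strand), which binds the calcium sensor Pdcd6 and S100a6, had opposite inhibitor responses. It had 102.8 and 149.7 CPM in inhibitor-treated ADPKD cells and 172.6 and 191.2 CPM in vehicle-treated ADPKD cells. It had 127.5 and 118.1 CPM in inhibitor-treated WT cells, against 70.2 and 83.9 CPM in vehicle-treated WT cells. Inhibitor-treated libraries were below vehicle-treated ones in ADPKD and above them in WT, and with inhibitor the genotypes overlapped. ADPKD over WT was 1.24 ± 0.16 with vehicle (adjusted p = 6.03e-05) and 0.04 ± 0.16 with inhibitor (adjusted p = 0.858). With the inhibitor Anxa11 fell by 0.53 ± 0.16 in ADPKD cells (adjusted p = 0.0217) and rose by 0.67 ± 0.16 in WT cells (adjusted p = 0.0106), and the interaction was -1.20 ± 0.23 (adjusted p = 0.00307). That interaction passed without any 1 library, at -1.48 to -0.93, and with every other alternative, at -1.23 to -0.87. The calls behind it were less firm. The fall in ADPKD cells was -0.27 (adjusted p = 0.206) with the GC trend removed, -0.26 (adjusted p = 0.208) without the first inhibitor-treated ADPKD library, -0.43 (adjusted p = 0.12) without the second vehicle-treated ADPKD library and -0.51 (adjusted p = 0.0563) without the first inhibitor-treated WT library. Without the second inhibitor-treated ADPKD library it was -0.81 (adjusted p = 0.00298). The rise in WT cells was 0.54 (adjusted p = 0.1) without the first vehicle-treated WT library and 0.62 (adjusted p = 0.0935) without the first inhibitor-treated WT library. Anxa11os, an antisense gene over 13490 bases of Anxa11, had 1.10 to 6.51 CPM, and the counting strand was not given.

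Anxa3 and Anxa8 differed between genotypes by more than 2 on the log2 scale both with vehicle and with inhibitor. Anxa3 (chr5:96793339-96845966, plus strand), first known from neutrophils and phospholipase inhibition, had 278.1 and 238.1 CPM in inhibitor-treated ADPKD cells and 311.7 and 324.8 CPM in vehicle-treated ADPKD cells, and 52.9 and 42.6 CPM in inhibitor-treated WT cells against 62.9 and 51.7 CPM in vehicle-treated WT cells. Every ADPKD library was above every WT library. ADPKD over WT was 2.47 ± 0.13 with vehicle (5.55-fold, adjusted p = 9.58e-09) and 2.43 ± 0.14 with inhibitor (adjusted p = 4.07e-08). The inhibitor values were -0.30 ± 0.13 in ADPKD cells (adjusted p = 0.0725) and -0.26 ± 0.13 in WT cells (adjusted p = 0.17), neither called. The ADPKD value was called under 4 alternatives, at -0.41 to -0.31, and without the first (-0.29, adjusted p = 0.0405) or second (-0.28, adjusted p = 0.0487) inhibitor-treated WT library, and the WT value without the first inhibitor-treated WT library (-0.43, adjusted p = 0.0419). Markers of neutrophils, a cell type known to express Anxa3, held at most 0.000456% of counts in ADPKD libraries and at most 0.000735% in WT libraries, with Ly6g at 0 in both WT groups.

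Anxa8 (chr14:34085981-34100571, plus strand) is an annexin of endosomes, found in stratified epithelia. It had 38.4 and 34.3 CPM in inhibitor-treated ADPKD cells and 178.8 and 100.4 CPM in vehicle-treated ADPKD cells. In WT cells it had 0.861 and 0.759 CPM with inhibitor, against 1.49 and 0.768 CPM with vehicle; these are 13 and 12 counts, against 30 and 13. The ADPKD libraries were all above the WT libraries, and in ADPKD the inhibitor-treated libraries were below the vehicle-treated ones. ADPKD over WT was 6.91 ± 0.38 with vehicle (adjusted p = 9.31e-07) and 5.48 ± 0.41 with inhibitor (44.6-fold, adjusted p = 1.37e-05). With the inhibitor Anxa8 fell by 1.94 ± 0.27 in ADPKD cells (to 0.261 of the vehicle level, adjusted p = 0.000676), and it was still 31.3-fold above vehicle-treated WT cells (4.97 ± 0.37, adjusted p = 7.97e-06). The WT value was -0.51 ± 0.60 (adjusted p = 0.589), and the interaction of -1.43 ± 0.68 was not called (adjusted p = 0.165), though -1.41 (adjusted p = 0.0253) with a replicate block, -1.39 (adjusted p = 0.0032) with no filter on low counts and -1.77 (adjusted p = 0.00739) without the second vehicle-treated ADPKD library. The parietal epithelium and urothelium markers held 0.205% to 0.243% in inhibitor-treated ADPKD cells, 0.126% to 0.128% in vehicle-treated ADPKD cells, 0.202% to 0.204% in inhibitor-treated WT cells and 0.105% to 0.106% in vehicle-treated WT cells. Few of the list's genes moved that way: of 9 tested, 1 rose and 2 fell with the inhibitor in ADPKD cells, and 1 rose and 1 fell in WT cells, the gene that rose in both being Cd24a (1.03 in ADPKD cells, adjusted p = 1.29e-05, and 1.49 in WT cells, adjusted p = 1.05e-06). Of all genes, 22.3% rose and 19.1% fell in ADPKD cells, and 13.9% and 11.6% in WT cells. A630023A22Rik lies opposite Anxa8 and had at most 0.571 CPM.

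Anxa13 (chr15:58341471-58389244, minus strand), which in human and dog cells carries a fatty acid anchor and serves apical transport, was scarce. Unlike the other members, it is listed in GENCODE M21 as a processed transcript and not as protein coding. It had 7 and 7 counts in inhibitor-treated ADPKD libraries (0.456 and 0.475 CPM) and 0 counts in both vehicle-treated ADPKD libraries. It had 16 and 12 counts in inhibitor-treated WT libraries (1.06 and 0.759 CPM), against 32 and 14 in vehicle-treated WT libraries (1.59 and 0.827 CPM). The 0 in vehicle-treated ADPKD cells allows up to 0.0979 CPM (95% Poisson limit, counting error only). With that group set to a floor of 3 counts (0.0796 CPM), Anxa13 was 15.6-fold lower there than in vehicle-treated WT cells. On the same floor it was 5.84-fold higher in inhibitor-treated than in vehicle-treated ADPKD cells. These folds leave out the counting error of the other group. Its 95% Poisson limits were 0.91 to 1.66 CPM in vehicle-treated WT cells and 0.254 to 0.78 CPM in inhibitor-treated ADPKD cells. The edgeR tests of a difference, not of these folds, gave adjusted p = 0.000366 and 0.00624. Vehicle-treated ADPKD cells thus lacked detectable Anxa13 at this depth, and inhibitor-treated ADPKD cells had 14 counts in all. With inhibitor, ADPKD over WT was -0.95 (adjusted p = 0.291), and the inhibitor value in WT cells was -0.42 (adjusted p = 0.673). The proximal tubule markers given above moved with genotype in the same direction as Anxa13, with 0 of 13 higher and 13 lower in ADPKD with vehicle. They were not alone in this. Markers of the thick ascending limb (0 higher, 7 lower), distal convoluted and connecting tubule (1, 7), intercalated cells (0, 9) and podocytes (1, 7) moved likewise. Those of principal cells (8 higher, 2 lower), macrophages (10, 1) and stroma (7, 1) went mostly the other way. Over all genes 28.8% were higher and 27.6% lower. The part of any of these lists in the Anxa13 counts was not tested.

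By a root mean square difference of centred log2 CPM over the 8 libraries, among 10759 genes with a mean of at least 5 CPM, the genes most like each annexin were as follows. Anxa2 was most like the simple-epithelium keratin Krt8 (0.119), itself one of the principal cell markers used above, and Capns1 (0.122), and Anxa5 was most like Thbs1, a secreted matrix protein (0.081). Anxa6 was most like Erc1 (0.0614), Anxa4 most like Rlim (0.0658), and Anxa7 most like Irak1 (0.0375). The own profiles of these 3 annexins have standard deviations of 0.564, 0.464 and 0.132. A gene that varies little gives small differences, so the values do not rank the matches between annexins. Anxa1 was most like Ctxn1 (0.297) and Clu (0.304), and Anxa3 most like Fgd6 (0.187) and Dusp4 (0.205). Anxa8, whose own profile has a standard deviation of 3.12, was most like Msln (0.482), Vgf (0.485) and Hmga2 (0.568). Anxa11 was most like Zbtb2 (0.144) and Tom1 (0.151), and Anxa13 most like the phosphate transporter Slc34a2 (0.283). Msln had 38.1 and 26.6 CPM in inhibitor-treated ADPKD cells, 97.2 and 63.7 CPM in vehicle-treated ADPKD cells, 0.596 and 0.696 CPM in inhibitor-treated WT cells and 0.697 and 0.177 CPM in vehicle-treated WT cells, the same order as Anxa8 for the ADPKD groups. These are descriptions over 8 libraries of 4 groups, and each profile is largely the group means.

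Outside the 10 genes, Anxa9 had 10.5 and 17.4 CPM in inhibitor-treated ADPKD cells and 7.21 and 6.89 CPM in vehicle-treated ADPKD cells, and 15.6 and 19.0 CPM in inhibitor-treated WT cells against 2.89 and 3.72 CPM in vehicle-treated WT cells. It rose with the inhibitor in both genotypes, 1.98-fold in ADPKD cells (adjusted p = 0.00746) and 5.25-fold in WT cells (adjusted p = 3.51e-05). Anxa10 was too low to test, with a group mean of at most 0.224 CPM. Among the copines, other calcium-dependent membrane binders, 7 were tested; with vehicle 2 were higher and 1 lower in ADPKD, where 56.4% of all genes were called, and with the inhibitor 2 rose and 2 fell in ADPKD cells, where 41.4% were called. Cpne3 rose by 1.33 ± 0.14 in ADPKD cells (adjusted p = 1.34e-05) and by 0.65 ± 0.13 in WT cells (adjusted p = 0.0033).

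Inhibitor-treated ADPKD cells were also set against vehicle-treated WT cells. In that comparison Anxa1 was higher by 3.51 ± 0.17 (adjusted p = 2.33e-08), Anxa3 by 2.17 ± 0.13 (adjusted p = 3.63e-08), Anxa5 by 1.63 ± 0.10 (adjusted p = 3.66e-08) and Anxa2 by 1.57 ± 0.13 (adjusted p = 4.94e-07). Anxa4 was higher by 1.25 ± 0.10 (adjusted p = 2.38e-07) and Anxa6 by 1.12 ± 0.10 (adjusted p = 1.31e-06). Anxa11 was higher by 0.71 ± 0.16 (adjusted p = 0.0031), a value of 0.41 (adjusted p = 0.0396) without the second inhibitor-treated ADPKD library. Anxa8 was higher by 4.97 ± 0.37, as given above. The other two were not called: Anxa7 had a value of 0.09 ± 0.11 (adjusted p = 0.531) and Anxa13 of -1.38 (adjusted p = 0.105), which was called with the compared groups alone (-1.46, adjusted p = 0.0384).

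The interaction called 5 annexins, 4 with a smaller value in ADPKD (Anxa1, Anxa2, Anxa5 and Anxa11) and 1, Anxa13, with a larger one, against 26.6% of all genes called, 13.0% negative and 13.6% positive. The median interaction of the 10 annexins was -0.41, against -0.02 over all genes. The count was 3 with DESeq2, with a 5 CPM filter and with the length trend removed, and 2 without the first vehicle-treated WT library, where Anxa13 was not called (adjusted p = 0.0629). Anxa1 and Anxa11 were called under every alternative.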

How the data were processed

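Gene counts of 8 RNA-seq libraries were used as the authors deposited them. Per the submitters' processing notes, the tools were HISAT2 2.1.0, featureCounts 1.6.0 and DESeq2 with build mm10. Not given in the sources used here: annotation release, strand setting and the handling of reads with several alignments. Columns of the vehicle libraries were assigned to samples by elimination. Gene positions, transcript length and GC content came from GENCODE M21, in which 96.9% of the symbols matched.

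The tests ran in edgeR 4.0.16 under R 4.3.3: filterByExpr (minimum count 10, minimum total 15), TMM scaling, and a robust quasi-likelihood fit of the 4 groups together, in which the residual degrees of freedom were 4, the prior ones 8.69 at the median, and the common biological coefficient of variation 0.138. Tests were two-sided and adjusted by Benjamini-Hochberg over all 17440 genes in each of 6 contrasts. CPM use TMM-scaled library sizes. Fold bounds set the group with 0 counts to a floor of 3 counts. They use the pooled CPM of the other group and leave out its counting error. Poisson limits cover counting error only. The procedure was tested on simulated data.

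All annexins were named; from each pathway list at most the 4 genes with the smallest p per contrast, and up to 3 genes most like each annexin. Members and lists were chosen with earlier results of these data known. Alternatives were RLE scaling, no filter, a filter of 5 CPM in 2 libraries, a replicate block, no robust option, the compared groups alone, DESeq2 1.42.0, lowess removal of GC or length trends (span 0.3), and leaving out each library. Figures used matplotlib 3.10.9 in Python 3.11.15.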

Additional observations from a re-analysis of the deposited data

Results flagged for a closer look

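For 5 annexins the inhibitor's effect in ADPKD cells differed from its effect in WT cells by the interaction test of edgeR, given as the log2 response in ADPKD minus that in WT. The differences were -1.20 for Anxa11 (adjusted p = 0.00307), -0.96 for Anxa1 (adjusted p = 0.0076), -0.53 for Anxa5 (adjusted p = 0.0148) and -0.52 for Anxa2 (adjusted p = 0.0467). Those of Anxa5 and Anxa2 were not firm, being lost under several alternatives given above. For Anxa13 the fitted difference was 6.42 (adjusted p = 0.0129), but its size depends on the 0 counts of vehicle-treated ADPKD cells and is no measure of the change. Anxa11 fell with the inhibitor in ADPKD cells and rose in WT cells. Anxa1 rose in both genotypes.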

How the results depend on the processing

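The interaction called 5 annexins, against 3 with a 5 CPM filter (9 annexins tested), 3 without the length trend and 3 with DESeq2, where Anxa13 had no adjusted p; without single libraries it called 2 to 5. Counts in the other comparisons kept within 1.5 times. Replicate numbers did not pair the libraries (correlations of deviations between groups -0.0371 to 0.0806 over 11199 genes); with a replicate block 8 annexins were called for genotype with vehicle and 6 with inhibitor, 7 for the inhibitor in ADPKD cells and 6 in WT cells, 6 for the interaction, and 8 for inhibitor-treated ADPKD over vehicle-treated WT. Some values that were not called changed sign, and the cause was not tested. Most lay near 0. The inhibitor values in WT cells of the low-count genes Anxa8 (-0.51) and Anxa13 (-0.42) did not. These 2 changed sign without the first vehicle-treated WT library. For Anxa6, genotype with vehicle was -0.04 (RLE), -0.03 (no filter), -0.01 (5 CPM), -0.07 (compared groups alone), -0.04 (DESeq2) and -0.02 (GC), and -0.08 to 0.06 without single libraries. Genotype with inhibitor was 0.00 (RLE, 5 CPM, DESeq2), 0.24 (GC) and 0.14 (length), and -0.13 to 0.11. The Anxa6 interaction was 0.04 (RLE), 0.02 (no filter), 0.01 (5 CPM), 0.04 (DESeq2), 0.26 (GC) and 0.13 (length), and -0.12 to 0.12. For Anxa7, the inhibitor in WT cells was -0.06 (RLE), -0.10 (5 CPM), -0.06 (DESeq2), -0.04 (GC) and -0.08 (length), and -0.18 to 0.17; genotype with inhibitor was -0.07 to 0.27, and inhibitor-treated ADPKD over vehicle-treated WT was 0.00 (5 CPM). The Anxa3 interaction was 0.01 (RLE, DESeq2) and 0.15 (length), and -0.17 to 0.14. Without single libraries, genotype with inhibitor was -0.26 to 0.29 for Anxa11, the inhibitor value in WT was -0.81 to 0.13 for Anxa13 and -0.88 to 0.07 for Anxa8, and the inhibitor value in ADPKD was -0.03 to 0.25 for Anxa2. Each group had 2 libraries, and Anxa13 had 0 to 32 counts a library.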
